A study of Rattus norvegicus with 18 samples.

Results

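Myh2, Pvalb, Tnnc2, Ldb3, and Scn4a are genes of mature skeletal muscle, and their mRNA was followed in the rat femur before and after a fracture. Members were all probe sets of the array that the platform's annotation gives to 1 of these 5 symbols, 9 of 8799 probe sets, and 8 of the 9 were bright enough to be tested among 4669. A further probe set is annotated jointly to Myh2, Myh1, and Myh8 and is given beside them. The rule did not use any measured value, but the genes were proposed with results of these arrays known.

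RNA came from intact female Sprague-Dawley rats of 3 ages, young at 6 weeks, adult at 26 weeks, and older at 52 weeks. A steel rod was placed in the left femur and a closed fracture of the mid-shaft was then made, and sham rats without fracture serve as the 0 time control. A central piece of the femur, with its callus, cortical bone, and marrow, was collected from the shams and at 5 times after fracture (3 days and 1, 2, 4, and 6 weeks). Each of the 18 arrays held the pooled RNA of 2 rats, with 1 array for each age and time, so that a time is represented by 3 arrays of different ages and an age by 5 arrays after fracture. Signals are in arbitrary units, with the average of an array set to 500 by the authors, and they cannot be set against each other between probe sets.

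Skeletal muscle contracts when an action potential opens calcium stores and calcium binds to troponin on the thin filament, which lets myosin pull on actin. Fibers differ in their myosin heavy chain and in how fast they take calcium up again. Scn4a is the sodium channel that carries the action potential along the fiber. Pvalb, parvalbumin, binds calcium and speeds relaxation in fast fibers. Tnnc2 is the calcium-binding troponin subunit of fast fibers. Myh2 is the heavy chain of the fast oxidative type IIA fiber. Ldb3, also called ZASP or Cypher, joins alpha-actinin at the Z-disc of striated muscle and is not restricted to fast fibers.

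The RefSeq annotation of the rat assembly GRCr8 places Myh2 at chr10:52355739-52382235, Pvalb at chr7:111653820-111668469, Tnnc2 at chr3:173932611-173935339, Ldb3 at chr16:9862161-9926338, and Scn4a at chr10:91745459-91796452. Promoter windows of 300 bases, 250 before and 50 after a RefSeq transcript start, were found for all 5 and searched on both strands for motifs known from muscle promoters. Those of Pvalb, Tnnc2, and Ldb3 are shown because the levels of these 3 genes moved together on the arrays, while the window of Ldb3 shared no searched motif with those of the other two. They lie on the minus strand at chr7:111666240-111666539, chr3:173935290-173935589, and chr16:9924630-9924929, and the first and the last of these starts lie within the annotated gene. Capitals mark E-boxes (CANNTG) in Pvalb and Tnnc2 and a CArG box in Ldb3.
Pvalb promoter: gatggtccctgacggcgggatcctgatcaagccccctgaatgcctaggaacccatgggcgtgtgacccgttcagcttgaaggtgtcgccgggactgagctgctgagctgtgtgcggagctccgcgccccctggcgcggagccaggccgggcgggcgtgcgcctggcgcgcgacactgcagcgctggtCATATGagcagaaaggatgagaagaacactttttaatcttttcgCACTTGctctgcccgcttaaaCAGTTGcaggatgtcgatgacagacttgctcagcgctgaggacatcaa
Tnnc2 promoter: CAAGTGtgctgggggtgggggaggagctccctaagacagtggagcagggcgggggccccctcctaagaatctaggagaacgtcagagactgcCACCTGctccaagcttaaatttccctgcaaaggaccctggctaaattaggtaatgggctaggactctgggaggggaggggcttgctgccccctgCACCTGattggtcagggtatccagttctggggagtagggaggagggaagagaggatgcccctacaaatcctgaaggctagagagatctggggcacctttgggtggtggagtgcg
Ldb3 promoter: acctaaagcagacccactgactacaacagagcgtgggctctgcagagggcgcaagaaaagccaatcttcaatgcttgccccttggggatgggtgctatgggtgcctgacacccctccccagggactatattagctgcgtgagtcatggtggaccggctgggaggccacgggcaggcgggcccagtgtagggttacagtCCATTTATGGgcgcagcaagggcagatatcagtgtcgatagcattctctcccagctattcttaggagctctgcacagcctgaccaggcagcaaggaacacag

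Pvalb, Tnnc2, and Scn4a each had 3 E-boxes, the motif of MyoD-family factors, which is present in 72.1% of 33469 rat promoter windows of this length. The windows of Myh2 and Ldb3 had none. The CArG box of Ldb3, the motif of serum response factor, begins 52 bases before the start (position -52) and is present in 1.64% of windows. No window of the 5 genes held the MCAT box CATTCC, found in 14.2% of all windows, or a MEF2 site, found in 3.29%. The motifs overlapped no other motif searched in these windows. A match or its absence describes these letters only.

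Facts of the whole series that touch these genes are few. The bone genes Bglap, Ibsp, Col1a1, and Acp5 were above 100 on all 18 arrays, so that the bone label of the tissue was met, and signals of muscle genes were also high on the arrays without fracture. Gapdh probes at the 5' end read 0.650 to 0.913 of those at the 3' end on 17 arrays, but 0.257 in the young rats at 6 weeks, and a low value can mark degraded RNA. The same ratio of Actb was low there too, with only the adult 1 week array lower, but it lay close to other arrays. It was 0.446 there, 0.447 on the older array without fracture, and lowest, at 0.372, in the adult rats at 1 week. On the older array without fracture the summed signal of the 5 genes, with the brightest probe set of each, was 16020.9, against 46976 on the young and 53978 on the adult array without fracture. In this bulk tissue fewer muscle fibers and less RNA per fiber cannot be told apart.

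**Figure D1:**
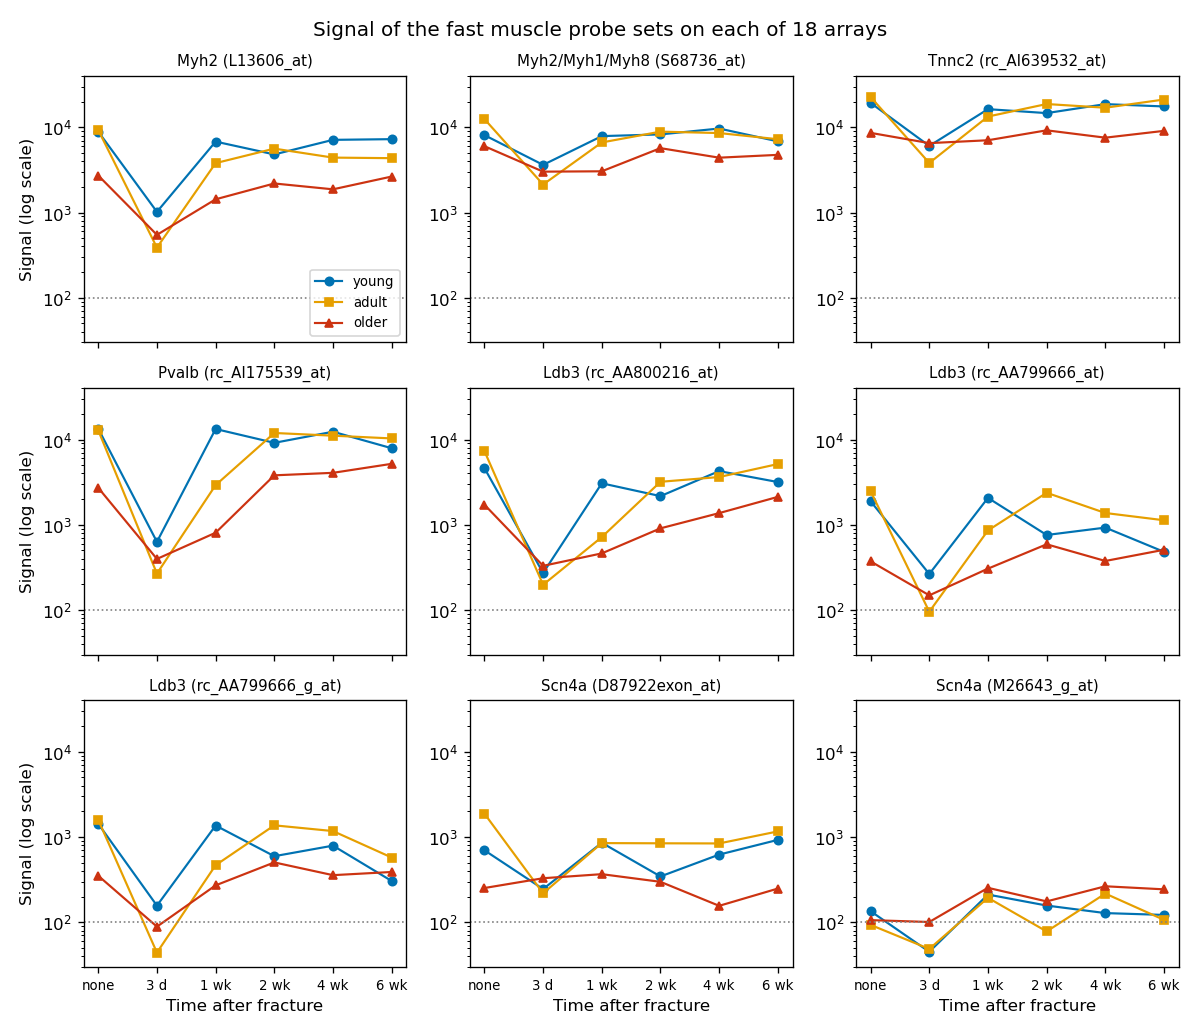
Signal of each fast muscle probe set (log scale, arbitrary units) at the 6 times, which are spaced evenly and not by duration. Each point is 1 array of pooled RNA from 2 rats, for young (circles), adult (squares), or older rats (triangles), and the dotted line is the floor of 100. Pvalb, Myh2, Tnnc2, and Ldb3 dip at 3 days in every age, and the older rats are lowest in these genes without fracture.

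At 3 days the question was how mature muscle mRNA first responded to fracture. All 5 genes were down-regulated from the no-fracture level on at least 1 probe set, Pvalb by 19.1-fold and Tnnc2 by 2.92-fold. For Scn4a this rests on D87922exon_at alone, whose groups overlapped and which in the older rats read 252.4 without fracture and 328.7 at 3 days. Its call was lost without any 1 of 3 arrays and under 4 other settings. The dim Scn4a probe set M26643_g_at did not pass (log2 -0.17 ± 0.30). Of the 8 tested probe sets, 7 fell and 0 rose, where 19.7% of all 4669 tested probe sets fell. The median log2 fold change was -2.96 over the 8 and 0.01 over all tested probe sets.

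In the order young, adult, and older, which is kept below, the signal of Pvalb was 13409.8, 12825.2, and 2717 without fracture and 631.3, 267.8, and 397.7 at 3 days. Every 3 days array was below every no-fracture array, and the older array without fracture was low. The log2 fold change was -4.25 ± 0.53 (SE, n = 3 arrays each, limma adjusted p = 3.63e-05). Relative to the array of the same age without fracture, 4.7%, 2.1%, and 14.6% of the signal remained.

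For Myh2 the signals were 8905.7, 9288, and 2721.6 without fracture and 1019.9, 388.2, and 548 at 3 days, again without overlap. Its fall was 10.1-fold (log2 -3.34 ± 0.33, limma adjusted p = 1.17e-05). The adult rats kept 4.2% of their own no-fracture signal, the young 11.5%, and the older 20.1%. The probe set shared by Myh2, Myh1, and Myh8, whose reading cannot be split among these myosins, fell 2.97-fold (log2 -1.57 ± 0.27, adjusted p = 0.000363), less than the probe set of Myh2 alone, and the difference between the probe sets was not tested.

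Tnnc2 gave 19336.3, 22651.8, and 8608.4 without fracture and 6049.7, 3816.9, and 6525.7 at 3 days. Its groups did not overlap either, but the older rats retained 75.8% of their own no-fracture signal, against 31.3% in the young and 16.9% in the adult rats. The fall over the ages was 2.92-fold (log2 -1.55 ± 0.31, limma adjusted p = 0.000953).

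Ldb3 had 3 probe sets. The brightest (rc_AA800216_at) read 4624.6, 7331.5, and 1721.5 without fracture and 272.3, 197.9, and 330.3 at 3 days, a fall of 14.9-fold (log2 -3.89 ± 0.50, adjusted p = 4.22e-05). The older rats were lowest before fracture and highest at 3 days. The other two (rc_AA799666_at and rc_AA799666_g_at), which carry 1 sequence name and so may share probes, fell at least 7.62-fold and at least 7.99-fold (log2 -2.93 ± 0.56 and -3.00 ± 0.47), with 1 and 2 of the 3 days arrays below the floor of 100.

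Scn4a was the least uniform of the genes. The probe set D87922exon_at read 699.6, 1881.5, and 252.4 without fracture and 245.4, 218.9, and 328.7 at 3 days, so that the groups overlapped and the older rats were at 130.2% of their own no-fracture signal. The fit over the 3 ages gave a fall of 2.66-fold (log2 -1.41 ± 0.48, adjusted p = 0.0271). This call was lost without the young 3 days array (adjusted p = 0.0920), without the adult array of no fracture (0.156) or of 3 days (0.196), with all probe sets tested (0.101), with no age term (0.139), with only the 6 arrays compared (0.0900), and by the methods' t-test, here unpaired on 3 arrays against 3 (0.292). M26643_g_at read 45.1 to 264.5 over the 18 arrays and did not pass the test at 3 days (log2 -0.17 ± 0.30). M26643_at, the 1 probe set not tested, was below 100 on all 18 arrays (27.4 to 97).

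**Figure D2:**
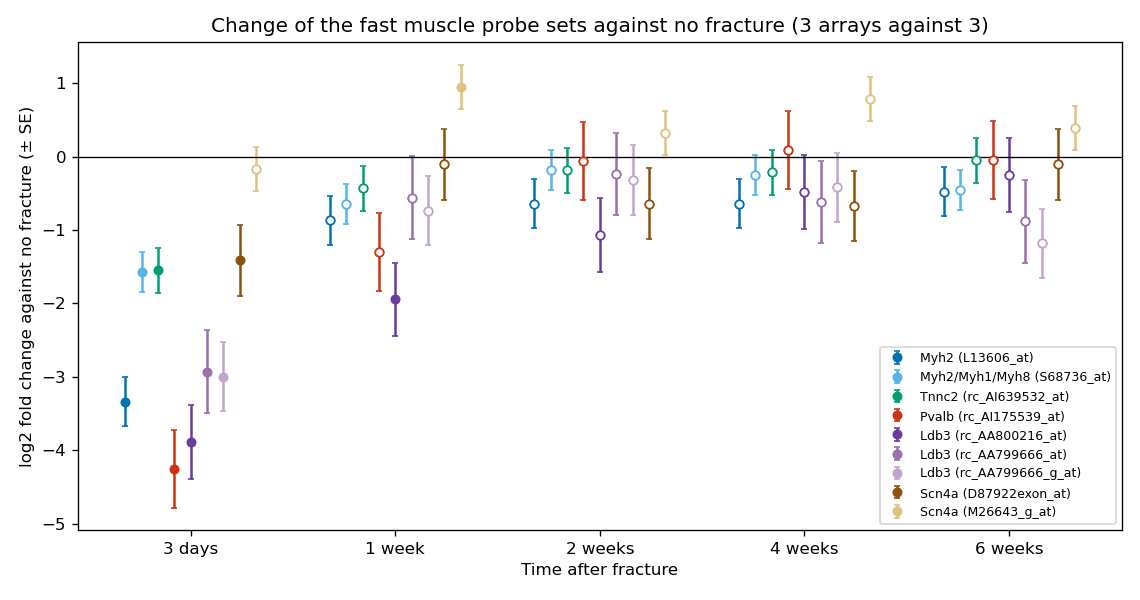
Log2 fold change against no fracture with its standard error for each probe set at each time, 3 arrays against 3 with age as a term. Filled points passed an adjusted p of 0.05 and open points did not, and 7 of the 8 member probe sets are filled and below 0 at 3 days.

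By 1 week the levels of Pvalb, Myh2, and Ldb3 had moved back toward those without fracture. Of the 8 probe sets, 2 passed against no fracture, 1 of them downward and 1 upward, where 24.8% of all tested probe sets did in either direction. Ldb3 (rc_AA800216_at) was still 3.86-fold lower (log2 -1.95 ± 0.50, limma adjusted p = 0.00994). The other Ldb3 probe sets did not pass (log2 -0.56 ± 0.56 for rc_AA799666_at and -0.74 ± 0.47 for rc_AA799666_g_at). The dim Scn4a probe set M26643_g_at was up-regulated by 0.95 ± 0.30 on the log2 scale (adjusted p = 0.0289), from 135, 93.2, and 106 to 211.5, 193.7, and 253.7. These groups do not overlap, but 1 of the no-fracture arrays was below the floor. Both calls were lost without the adult array of no fracture or of 1 week, or without the older 1 week array.

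The return from 3 days to 1 week was itself tested. Here 5 of 8 probe sets, of Pvalb, Myh2, and Ldb3, rose, against 1.24% of all tested probe sets rising. Pvalb rose 7.76-fold (log2 2.96 ± 0.53, adjusted p = 0.0137) and Myh2 5.55-fold (log2 2.47 ± 0.33, adjusted p = 0.00506). Tnnc2, by 1.12 ± 0.31 on the log2 scale, did not pass (adjusted p = 0.0567), nor did either probe set of Scn4a. Without the young 1 week array 0 of the 8 passed, and without the adult 3 days array 1 passed. Without the adult 1 week, adult 4 weeks, older 2 weeks, or older 4 weeks array 3 passed.

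The ages were far apart at 1 week. Pvalb was at 13301.6 in the young rats, 2921.4 in the adult rats, and 807.4 in the older rats, which is 99.2%, 22.8%, and 29.7% of the no-fracture signal of the same age. Myh2 was at 6800.1, 3803.9, and 1431.4 (76.4%, 41.0%, and 52.6%). Ldb3 (rc_AA800216_at) was at 3068.7, 717.9, and 462.2 (66.4%, 9.8%, and 26.8%). The other Ldb3 probe sets were nearer to no fracture, rc_AA799666_at at 109.6%, 34.7%, and 82.2% and rc_AA799666_g_at at 95.4%, 29.4%, and 77.1%. For all 3 genes the young array was nearest to its own no-fracture signal at 1 week. With 1 array of each age at a time, these differences could not be tested.

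**Figure D3:**
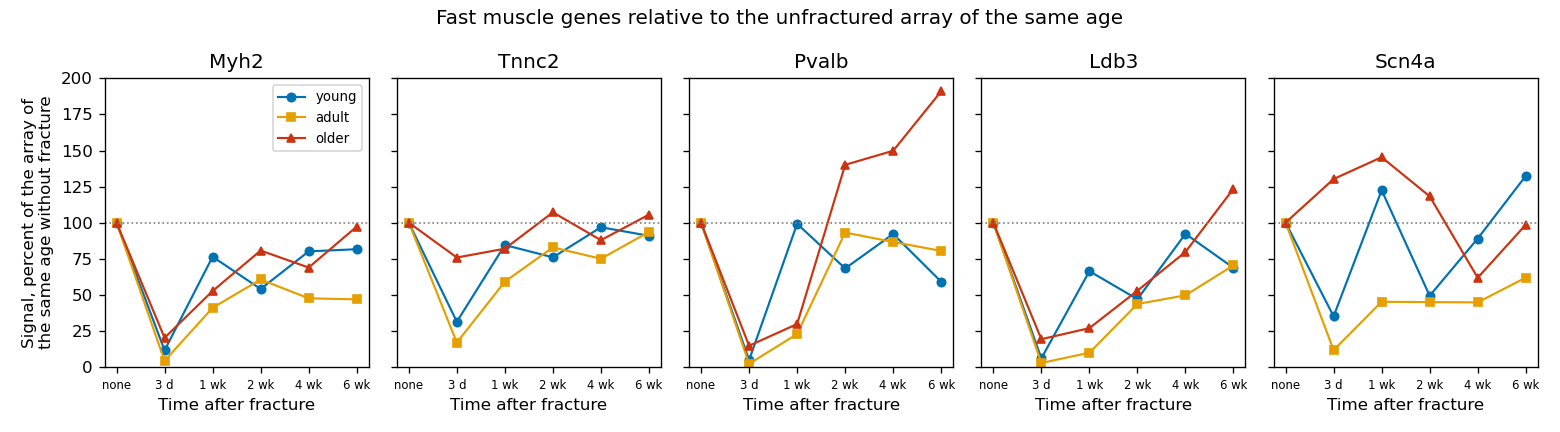
Signal as a percent of the array of the same age without fracture, for the brightest probe set of each gene, against time (evenly spaced), with 1 array per point. The young rats reach 99.2% for Pvalb at 1 week, the adult and older rats 22.8% and 29.7%, and in older rats Pvalb lies at 191.1% at 6 weeks.

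At 2, 4, and 6 weeks, 0 of the 8 probe sets passed against no fracture in the limma fit, where 21.1%, 6.49%, and 4.39% of all tested probe sets did in either direction (1535, 931, and 923 of the 4669 at an unadjusted p under 0.05). The intervals remain wide. At 6 weeks the 95% interval of the log2 fold change was -1.18 to 1.08 for Pvalb, -1.19 to 0.23 for Myh2, and -0.70 to 0.60 for Tnnc2. In the adult rats Myh2 was at 60.6%, 47.5%, and 46.8% of its no-fracture signal at the 3 late times. In the older rats Pvalb was at 3805.6, 4071.1, and 5192.3, all above the 2717 of the array without fracture.

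Between successive times from 1 week on, 0 of the 8 probe sets passed in any step. From 1 to 2 weeks and from 4 to 6 weeks 0% of all tested probe sets passed by limma, with 159 and 200 of them at an unadjusted p under 0.05, and from 2 to 4 weeks 0.557% passed, with 446. From highest to lowest mean signal the times stood as no fracture, 6 weeks, 4 weeks, 2 weeks, 1 week, and 3 days for Myh2, for Tnnc2, and for Ldb3 (rc_AA800216_at). Of the neighbours in this order, 1 week and 3 days were told apart for Myh2 and Ldb3, and no others were. For Ldb3 (rc_AA800216_at) the call lay at the threshold (limma adjusted p = 0.0477). It was lost without any 1 of 14 arrays (0.0517 to 0.319) and under 6 other settings. For Pvalb the order was no fracture, 4 weeks, 2 weeks, 6 weeks, 1 week, and 3 days.

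From 3 days to 6 weeks 7 of 8 probe sets rose, where 17.5% of all tested probe sets did. Pvalb rose 18.5-fold (log2 4.21 ± 0.53), Ldb3 (rc_AA800216_at) 12.5-fold (log2 3.64 ± 0.50), Myh2 7.28-fold (log2 2.86 ± 0.33), and Tnnc2 2.82-fold (log2 1.50 ± 0.31), with limma adjusted p of 9.10e-05, 0.000183, 6.45e-05, and 0.00222. Scn4a (D87922exon_at) rose 2.48-fold (adjusted p = 0.0454), a call that lies at the threshold. It was lost under quantile normalization (0.0683), with equal medians (0.0792), with all probe sets tested (0.140), with no age term (0.185), with only the 6 arrays compared (0.100), by the methods' t-test (0.251), and without any 1 of 11 arrays (0.0512 to 0.276). The 3 days arrays enter this comparison as they do that with no fracture. Without the adult 3 days array 4 of the 8 passed.

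The Ldb3 probe sets parted at 6 weeks and already before. In the older rats at 2 weeks rc_AA800216_at was at 52.8% of its no-fracture signal, and rc_AA799666_at and rc_AA799666_g_at at 158.7% and 143.4%. In the adult rats at 2 weeks they were at 43.6%, 95.9%, and 86.2%, and in the young rats at 46.9%, 40.2%, and 41.7%. On the young 6 weeks array, the one with the low Gapdh ratio but not the lowest Actb ratio, rc_AA800216_at was at 68.6% of its no-fracture signal. There rc_AA799666_at and rc_AA799666_g_at were at 25.5% and 21.4%. For rc_AA799666_g_at the difference from no fracture was -1.18 ± 0.47 on the log2 scale with all arrays and -0.75 without that array, and neither passed (adjusted p = 0.172 and 0.455). The part of RNA integrity in this was not tested.

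Mature muscle genes outside the 5 were down-regulated at 3 days as well. In 5 lists of contractile, calcium handling, Z-disc, and metabolic genes, 42 of 54 tested genes fell and 1 rose, 77.8% falling, with a median log2 fold change of -1.55. Over all tested probe sets 19.7% fell and 24.5% rose at 3 days, which are the shares to set beside the count of each list below. The lists were drawn up with earlier results of these arrays known. Each gene is given by its brightest probe set.

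Of 10 tested fast contractile genes, 9 fell and 0 rose (median -1.45). Tnni2, the inhibitory troponin subunit of fast fibers, fell 4.22-fold (log2 -2.08 ± 0.32), Tnnt3, which holds fast troponin on tropomyosin, 3.34-fold (log2 -1.74 ± 0.30), and Myl11, the fast regulatory light chain, 2.99-fold (log2 -1.58 ± 0.29). In the older rats the falls of these genes were smaller, that of Tnnt3 from 12738.2 to 8950.5. Mybpc2, of the same list, rose in the older rats from 1637.2 to 2587.4 and fell in the others. The probe sets of the tropomyosin Tpm1 disagreed. M34134_s_at, M15474cds_s_at, and X02412_at fell 3.17-fold, 3.15-fold, and 5.21-fold, M60666_s_at rose 4.86-fold, and rc_AI144767_s_at did not pass (log2 0.46 ± 0.30). Tpm1 is also made in smooth muscle and other cells. Myh4, the heavy chain of type IIB fibers, read 16318.5, 22479.7, and 13108.3 without fracture and 12344.8, 7052, and 12282.7 at 3 days, a fall of 1.65-fold (log2 -0.72 ± 0.27, adjusted p = 0.0391). Myh1, of type IIX fibers, did not pass (log2 -0.61 ± 0.36, adjusted p = 0.184). Its probe set read 314.1, 336.6, and 812.4 without fracture, highest in the older rats, unlike the members. At 3 days it read 292.3, 227.8, and 364.

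Slow-fiber genes fell too, so that the loss was not restricted to fast isoforms. Of 7 tested, 5 fell and 0 rose (median -1.85), among them Myl2, the slow regulatory light chain, by 9.15-fold (log2 -3.19 ± 0.54), Myl3 by 4.67-fold (log2 -2.22 ± 0.51), and Mybpc1, a thick filament protein, by 4.17-fold (log2 -2.06 ± 0.34). Myh7, the slow heavy chain, fell 3.61-fold (log2 -1.85 ± 0.47), and its older array at 3 days, 5949.2, was close to the 6141.7 without fracture. The slow troponin C gene Tnnc1 was not analysed here.

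Among genes of excitation and calcium handling, 9 of 10 fell and 0 rose (median -1.34). Casq1, which stores calcium in the sarcoplasmic reticulum, fell 7.37-fold (log2 -2.88 ± 0.39), Cacna1s, the voltage sensor of the T-tubule, 3.49-fold (log2 -1.80 ± 0.42), Atp2a1, the calcium pump of fast fibers, 3.40-fold (log2 -1.77 ± 0.31), and Jph2, which ties the T-tubule to the reticulum, 3.30-fold (log2 -1.72 ± 0.33).

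Z-disc and cytoskeletal genes were mixed, with 4 of 12 falling and 1 rising (median -0.52), against 19.7% of all tested probe sets falling and 24.5% rising. Tcap, which caps titin, fell 5.12-fold (log2 -2.36 ± 0.46), Actn2, an alpha-actinin that Ldb3 binds, 3.24-fold (log2 -1.70 ± 0.37), and Smpx 2.19-fold (log2 -1.13 ± 0.44, limma adjusted p = 0.0476). Smpx fell in the young and the adult rats only, and Actn2 fell mostly in these. In the older rats Smpx was 563 without fracture and 815.6 at 3 days, and Actn2 was 1793.1 and 1675.5. Pdlim5, a relative of Ldb3 that is also made outside muscle, rose 4.04-fold (log2 2.02 ± 0.30). Pdlim3, another relative, was 5506.4, 8679.2, and 1593.2 without fracture and 3177.3, 3307.4, and 6808.8 at 3 days, higher in the older rats and lower in the others, with a log2 difference of -0.03 ± 0.47 (adjusted p = 0.964).

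All 15 tested genes of muscle energy metabolism fell (median -2.32). Eno3, the muscle enolase, fell by 3.17 ± 0.42 on the log2 scale, Car3, a carbonic anhydrase of slow fibers and fat, fell 8.23-fold (log2 -3.04 ± 0.41), Ckmt2, a mitochondrial creatine kinase, 7.41-fold (log2 -2.89 ± 0.52), and Slc2a4, the insulin-dependent glucose transporter, 6.07-fold (log2 -2.60 ± 0.45).

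**Figure D4:**
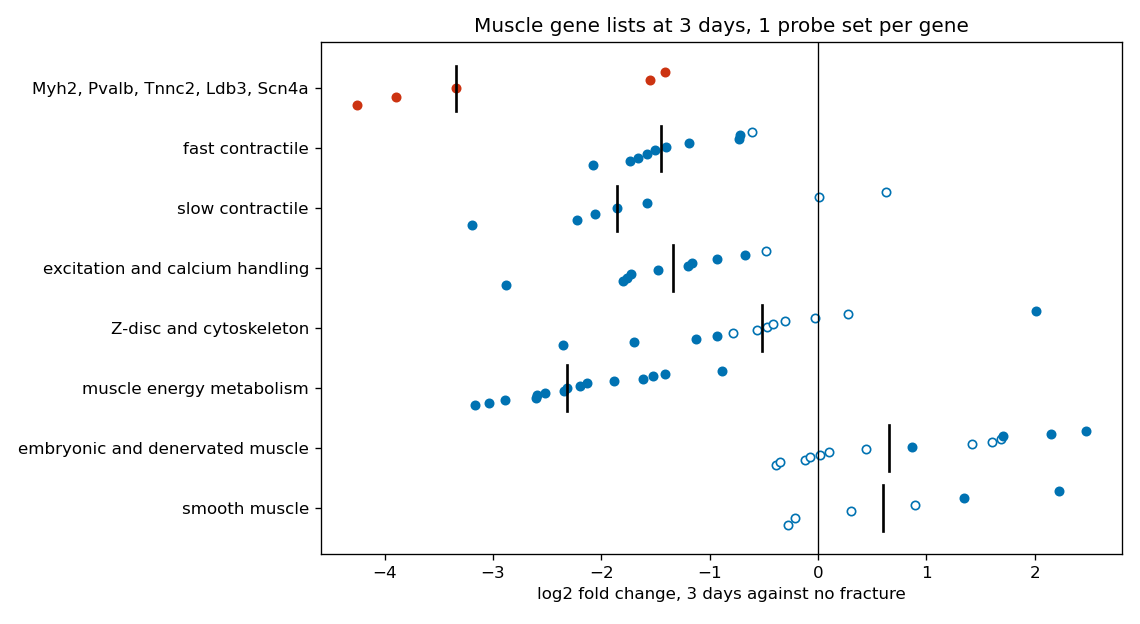
Log2 fold change at 3 days against no fracture for the 5 genes (red) and for genes of other lists (blue), 1 probe set per gene. Filled points passed an adjusted p of 0.05, black bars are medians, and all 15 genes of muscle energy metabolism lie below 0 while the embryonic list lies mostly above it.

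Among genes of embryonic or denervated muscle the calls were upward. Of 14 tested, 4 rose, 0 fell, and 10 did not pass at 3 days (median 0.65), a share near the 24.5% of all tested probe sets that rose. At 1 week 8 rose and 0 fell (median 1.43), where 14.3% of all tested probe sets rose. Tnnt2, the troponin T of heart and embryonic muscle, rose 5.54-fold at 3 days (log2 2.47 ± 0.49), Chrna1, a subunit of the acetylcholine receptor, 4.45-fold (log2 2.15 ± 0.50), the adhesion molecule Ncam1 3.27-fold (log2 1.71 ± 0.28), and the receptor subunit Chrnd 1.83-fold (log2 0.87 ± 0.32). Myh3, the embryonic heavy chain, read 5727.3, 4779.9, and 1820.5 without fracture and 11960.2, 18600.1, and 17444.8 at 1 week, a rise of 4.27-fold (log2 2.09 ± 0.42, adjusted p = 0.00181). At 1 week Myh3 was lowest in the young rats, in which Myh2 was highest. Myh8, the perinatal heavy chain, was below 100 on most arrays and was not tested.

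Some genes of other cells also passed at 3 days, where 19.7% of all tested probe sets fell and 24.5% rose. Of 4 tested erythroid genes 4 fell at 3 days, and their summed signal was 50891 to 77487.4 without fracture and 5211.6 to 11774.3 at 3 days. Of 6 smooth muscle genes 2 rose (summed 5079.2 to 5710 and 8092 to 12085), of 6 adipocyte genes 3 fell (8853.3 to 13090.8 and 5648.9 to 6384.3), and of 3 endothelial genes 2 rose (570.6 to 817 and 847.2 to 1222.4). The Gapdh ratio was 0.757 to 0.913 without fracture and 0.731 to 0.857 at 3 days. The part of tissue composition in the muscle result was not tested.

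Differences between ages after fracture were next compared over 5 arrays per age. Myh2 was the only one of the 8 probe sets that passed between older and young rats, where 0.0643% of all tested probe sets fell. It ranged from 1019.9 to 7264.7 in the young rats (median 6800.1), from 388.2 to 5626.2 in the adult rats (median 4347.4), and from 548 to 2646.2 in the older rats (median 1874.1). All 5 older arrays were below the young arrays of the same times, and the ranges overlapped through 3 days. Mean signals were 5405 ± 2644, 3716 ± 1976, and 1739 ± 800 (SD, n = 5 arrays), and the older rats were 2.89-fold below the young (log2 -1.53 ± 0.25, limma adjusted p = 0.0374). The 5 arrays of an age are 5 different times, so that these SDs include the change over time, which the time term of the fit takes up. The call did not hold when any 1 of 9 arrays was left out, with adjusted p between 0.0550 and 0.128 and the log2 difference between -1.56 and -1.37.

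Pvalb differed by a similar amount, 3.11-fold (log2 -1.64 ± 0.41), and did not pass (adjusted p = 0.0643). Its young arrays ran from 631.3 to 13301.6 and its older arrays from 397.7 to 5192.3. Tnnc2 was 1.75-fold lower in older rats (log2 -0.81 ± 0.24, adjusted p = 0.0858). Without the older 3 days array 5 of the 8 probe sets passed, Pvalb among them (adjusted p = 0.0106), and without the adult 3 days array 2 passed.

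Between older and adult rats Scn4a (D87922exon_at) passed, the 1 call of 8, where 1.35% of all tested probe sets fell. It was 156 to 366.9 in the older rats (median 298.4) and 218.9 to 1164.2 in the adult rats (median 844.5), a 2.56-fold difference (log2 -1.36 ± 0.35, limma adjusted p = 0.0497). The call lies at the threshold and was lost without any 1 of 12 arrays, while without the older 3 days array 6 probe sets passed and without the adult 3 days array 4. The dim Scn4a probe set M26643_g_at was instead higher in the older than in the adult rats and did not pass (log2 0.54 ± 0.23, limma adjusted p = 0.153). Between adult and young rats 0 of 8 passed, as did 0% of all tested probe sets by limma (618 at an unadjusted p under 0.05).

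By period, older and young rats were compared at 1 and 2 weeks and at 4 and 6 weeks, 2 arrays against 2 with 4 residual degrees of freedom. At 1 and 2 weeks Myh2 alone passed (log2 -1.69 ± 0.29, 3.23-fold, adjusted p = 0.0364), where 0.150% of all tested probe sets fell. The largest difference, that of Pvalb (log2 -2.65 ± 0.54), did not pass (adjusted p = 0.0736). Without the young 2 weeks array 6 of the 8 passed.

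At 4 and 6 weeks 3 of the 8 probe sets were lower in older rats, where 0.985% of all tested probe sets fell. Scn4a (D87922exon_at) was 622.4 and 926.2 in young and 156 and 248.7 in older rats (log2 -1.95 ± 0.32, adjusted p = 0.0185). Myh2 was 7129.2 and 7264.7 against 1874.1 and 2646.2 (log2 -1.69 ± 0.29, adjusted p = 0.0224), and Tnnc2 was 18717.5 and 17573.6 against 7561.5 and 9087.1 (log2 -1.13 ± 0.22, adjusted p = 0.0345). No older array of these 3 probe sets reached a young one. The young 6 weeks array, 1 of the 2 young arrays here, is the one with the low Gapdh ratio (0.257). The part of RNA integrity in these differences was not tested. The dim Scn4a probe set M26643_g_at went the other way, 128.2 and 122 in young and 264.5 and 243.5 in older rats. It did not pass (log2 1.02 ± 0.35, limma adjusted p = 0.127). The count at 4 and 6 weeks fell to 0 without any 1 of the 4 arrays compared, and that at 1 and 2 weeks without the young 1 week array, any 1 of its older arrays, or any 1 of the 6 arrays of 4 and 6 weeks, which share the estimate of spread.

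On the arrays without fracture the older rats were also lowest for 7 of the 8 probe sets, the exception being Scn4a (M26643_g_at). The gap between older and young rats over the 5 later times, less the gap on the no-fracture arrays, passed for 0 of 8 probe sets (0.18 to 1.31 on the log2 scale, lowest limma adjusted p = 0.484), where 2.55% of all tested probe sets did (772 at an unadjusted p under 0.05). For Myh2 it was 0.18 with a 95% interval of -1.12 to 1.47, and for Pvalb 0.67 with an interval of -1.51 to 2.84. It rests on 1 no-fracture array of each age. The age differences after fracture were thus not told apart from those already present on the arrays without fracture.

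**Figure D5:**
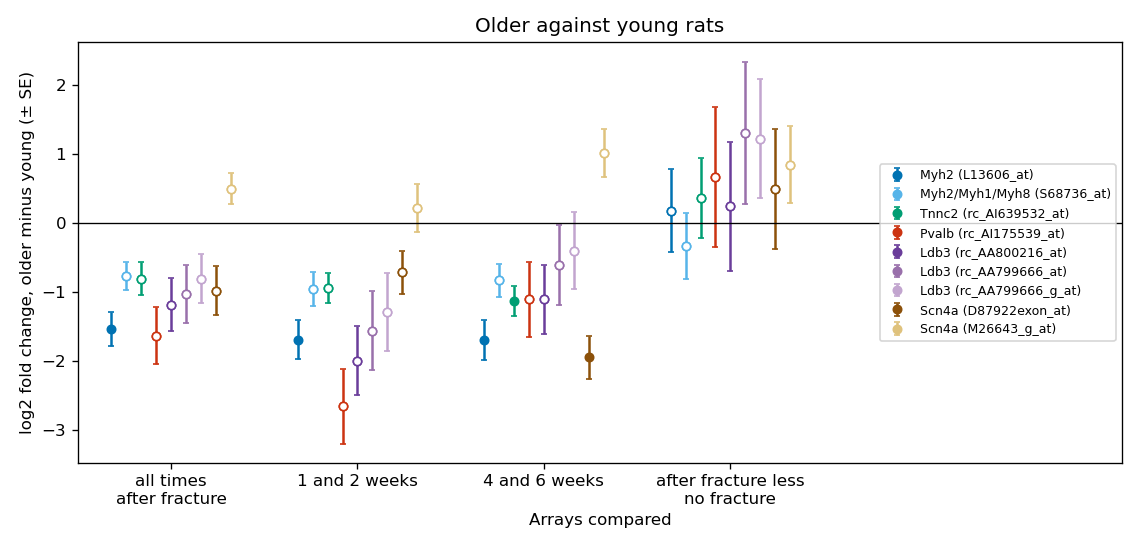
Log2 difference between older and young rats with its standard error for each probe set, over all times after fracture, in each period, and after fracture less no fracture. Filled points passed an adjusted p of 0.05, and Myh2 is filled in the first 3 comparisons while no point is filled in the last.

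Over the 18 arrays the log2 signals of Myh2, Pvalb, Tnnc2, and Ldb3 followed each other. Pearson's r was 0.951 between Myh2 and Pvalb, 0.946 between Myh2 and Tnnc2, and 0.957 between Pvalb and Ldb3 (rc_AA800216_at). Scn4a (D87922exon_at) had r of 0.856 with Tnnc2 and 0.634 with Pvalb, and -0.22 with the other tested probe set of Scn4a. These values describe 18 arrays that share times, ages, and the fall at 3 days.

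The 5 probe sets most like each of Pvalb, Myh2, and Tnnc2 were of genes in the muscle lists and, for Myh2, also of Pvalb. Nearest to Pvalb and to Myh2 were Tpm1 (X02412_at, r = 0.978 and 0.963), the muscle phosphoglycerate mutase Pgam2 (0.973 and 0.962), and Eno3 (0.968 and 0.954). Casq1 and Myl2 completed the 5 nearest to Pvalb, and Pvalb and Myl11 those to Myh2. Tnnc2 was nearest to Myl1, the fast essential light chain (0.974), followed by Myl11, Ckm, and Tnnt3. Ldb3 (rc_AA800216_at) was nearest to Car3 (0.985) and to Myl2 (0.975), both known from slow fibers, followed by Hspb6, Phkg1, and Pygm. Of the other Ldb3 probe sets, rc_AA799666_at was nearest to Myl11 (0.953 and 0.938 on its 2 probe sets), Pgm1 (0.947), Aldh1a1 (0.937), and Rpl3l (0.926). For rc_AA799666_g_at the nearest were Pgm1 (0.933), Casq1 (0.922), Myl11 (0.922), Pkia (0.920), and Tnni2 (0.915). Pgm1, Aldh1a1, Rpl3l, and Pkia are in none of the muscle lists used here.

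For Scn4a, D87922exon_at was nearest to Cox6a2, a cytochrome oxidase subunit of heart and skeletal muscle (0.948), to Cpt1b, which admits fatty acids into muscle mitochondria (0.944), and to Akap1, Uqcr11, and Atp5po. The dim M26643_g_at was nearest to Sirpa (0.825), Jag2 (0.810), Rbpms, Slfn5, and Pam, none of which is in a muscle list used here.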

How the data were processed

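The deposited values are signal intensities of Affymetrix GeneChips, 1 table for 18 arrays, which the authors computed with Microarray Suite and brought to a mean of 500 per array. Detection calls were left out. The platform's annotation, updated through gene identifiers to RefSeq GRCr8, named 1 gene for 7029 of 8799 probe sets and several genes for 297, and left 1473 unnamed. A floor of 100 was applied before log2. Testing required 200 or more on 3 or more arrays. limma 3.58.1 in R 4.3.3 (lmFit, eBayes with trend, two-sided) was fitted to all 4669, with time and age as terms, ages over 15 arrays after fracture, and Benjamini-Hochberg adjustment over all 4669 at 0.05. At each time the replicates differ in age. The age term takes up a constant difference between ages, so that the spread behind the p-values is array noise and differences between ages in their time course. The number of arrays limits precision. "At least" marks a fold change with an array of the lower group below 100.

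Members and lists were chosen with earlier results of these data known. Named were all members, up to 4 called genes of each list with the largest change at 3 days, set counterparts, and the 5 probe sets most correlated with each member. Mybpc2 was added for its values in the older rats. The alternatives tried were quantile normalization, equal medians, a floor of 20 or 200, a filter of 500 or none, no age or time term, only the 6 arrays compared, 1 probe set per gene, the methods' t-test, and each array left out. That t-test was unpaired, on 3 arrays against 3 of floored log2 signals with Benjamini-Hochberg adjustment. The study's own t-tests pooled more arrays per time and were not rerun. The steps were tested on simulated data. Figures used Python 3.11.15 and matplotlib 3.10.9.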

Additional observations from a re-analysis of the deposited data

How the results depend on the processing

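Of 128 differences of the 8 member probe sets (16 comparisons), 30 changed sign under at least 1 alternative, all of them differences that passed neither in the reported fit nor under that alternative and that were at most 0.40 on the log2 scale in the reported fit. No called difference changed sign. Under quantile normalization the log2 difference from no fracture became 0.019 at 2 weeks and 0.021 at 6 weeks for Pvalb and 0.090 at 4 weeks and 0.020 at 6 weeks for Tnnc2, that of 4 weeks against 2 weeks 0.036 for Myh2 and 0.12 for Tnnc2, and that of 6 weeks against 4 weeks -0.069 for Tnnc2. With equal medians Pvalb became -0.055 at 4 weeks against no fracture. With a floor of 200 Scn4a became 0.090 at 4 weeks against 2 weeks (D87922exon_at) and 0.0077 in adult against young rats (M26643_g_at), and with a floor of 20 Ldb3 (rc_AA799666_g_at) became -0.14 in adult against young rats. With an array left out, the log2 differences that changed sign ranged as follows. For 3 days against no fracture they ran from -0.38 to 0.037 for Scn4a (M26643_g_at). For 1 week against no fracture they ran from -0.44 to 0.33 for Scn4a (D87922exon_at). For 2 weeks against no fracture they ran from -0.71 to 0.23 for Ldb3 (rc_AA799666_at), -0.73 to 0.053 for Ldb3 (rc_AA799666_g_at), and -0.36 to 0.22 for Pvalb. For 4 weeks against no fracture they ran from -0.22 to 0.36 for Pvalb. For 6 weeks against no fracture they ran from -0.44 to 0.33 for Scn4a (D87922exon_at), -0.49 to 0.12 for Ldb3 (rc_AA800216_at), -0.35 to 0.35 for Pvalb, and -0.23 to 0.12 for Tnnc2. For 2 weeks against 1 week they ran from -0.0025 to 0.47 for Myh2 and -0.079 to 0.92 for Ldb3 (rc_AA799666_at). For 4 weeks against 2 weeks they ran from -0.35 to 0.32 for Scn4a (D87922exon_at), -0.25 to 0.23 for Myh2, -0.85 to 0.019 for Ldb3 (rc_AA799666_at), -0.48 to 0.18 for Ldb3 (rc_AA799666_g_at), -0.13 to 0.39 for Pvalb, and -0.14 to 0.13 for Tnnc2. For 6 weeks against 4 weeks they ran from -0.59 to 0.21 for Ldb3 (rc_AA799666_at) and -0.42 to 0.27 for Pvalb. For adult against young after fracture they ran from -0.21 to 0.076 for Scn4a (M26643_g_at), -0.13 to 0.57 for Ldb3 (rc_AA799666_at), -0.15 to 0.49 for Ldb3 (rc_AA799666_g_at), -0.53 to 0.11 for Ldb3 (rc_AA800216_at), and -0.20 to 0.16 for Tnnc2. For older against young, 4 and 6 weeks they ran from -1.06 to 0.26 for Ldb3 (rc_AA799666_g_at). For older against young after fracture less no fracture they ran from -0.069 to 0.34 for Myh2 and -0.14 to 0.66 for Ldb3 (rc_AA800216_at). With all arrays, quantile normalization and equal array medians left the number of members called within 1.5 times that reported in every comparison. At 3 days against no fracture 6 to 7 of 8 passed when an array was left out, and 2 by the methods' t-test. At 1 week against no fracture the count of 2 ran from 0 to 3 with an array left out, was 1 with a floor of 20 or 200, a filter at 500, 1 probe set per gene, or only the 6 arrays, and 0 with no filter, no age term, or the t-test. For 2 weeks against no fracture it was 1 with only the 6 arrays. For 1 week against 3 days the count of 5 ran from 0 to 7 with an array left out, was 3 with a floor of 200 or 1 probe set per gene, 1 with no filter, and 0 with no age term, only the 6 arrays, or the t-test. For 6 weeks against 3 days it ran from 4 to 7 and was 2 by the t-test. Older against young after fracture ran from 0 to 5, older against adult from 0 to 6, older against young at 1 and 2 weeks from 0 to 6, and at 4 and 6 weeks from 0 to 4. Each of these 4 was 0 with a floor of 200 or no filter. The first 2 were also 0 with no time term, and older against adult with a floor of 20. The causes were not tested. The remaining comparisons stayed at 0 with any array left out. The departure from no fracture could not be fitted without the young or the older no-fracture array and was run without the other 16.

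No paired analysis was possible because the labels give no replicate numbers, with 1 array for each age and time, and age was a term of the fits. Signals near 100 limit Scn4a (M26643_g_at), since the floor narrows its differences. With a floor of 20 that of 1 week against 3 days was 1.85 on the log2 scale in place of 1.12.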
